A study of Mus musculus with 18 samples.

Results

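The genes described here are the Zfp genes, mouse zinc finger protein genes whose symbol is Zfp followed only by a number. Every gene in the 3 deposited tables with such a symbol was taken, apart from Zfp36, a factor of RNA decay with zinc fingers of another type. This gave 249 genes of the 10133 genes listed in any table. The tables held 196 Zfp genes of 7555 at 0 min, 201 of 8308 at 15 min and 95 of 6119 at 120 min. Of the 249, 52 were listed at all 3 times, 111 at 0 and 15 min only, 12 at 0 and 120 min only and 16 at 15 and 120 min only. A further 21 were listed only at 0 min, 22 only at 15 min and 15 only at 120 min. GENCODE M21 has 364 protein-coding genes with such symbols, and those outside the tables are not analysed here.

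RNA was measured in immortalized mouse embryonic fibroblasts, cells taken from mouse embryos and grown without limit in culture. One line carried the S51A form of eIF2α, a translation initiation factor subunit that stress kinases can no longer phosphorylate at its regulatory serine. The other was its wild-type counterpart (WT). The 6 groups were S51A cells at 0 min (untreated), S51A cells after 15 min and after 120 min in 500 µM hydrogen peroxide, and WT cells under the same conditions, with 3 samples labelled in each group although the series' design speaks of duplicates. Each genotype was a single line, so genotype and line cannot be told apart.

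Each table gives 1 FPKM value per line (fragments mapped, scaled to transcript length and to all mapped fragments), which is per length, so levels can be compared between genes. It lists a gene only if the authors called it different between the lines, at a q-value of at most 0.05. "Higher" and "lower" below are those calls, S51A relative to WT. No values of single samples were used, so no spread between replicates and no test over samples can be given here, and the counts are read against all listed genes. Of 9 fibroblast markers, 8 were listed at 0 min, 8 at 15 min and 6 at 120 min. No epithelial, endothelial or pluripotent marker was listed, and of 3 leukocyte markers Cd68 was listed once, with 1.11 FPKM in S51A cells and 1.97 FPKM in WT cells at 0 min. The fibroblast markers differed between the lines in both directions. At 0 min Col1a1 had 1160 FPKM in S51A cells and 241 FPKM in WT cells, and Vim had 1070 FPKM in S51A cells and 1870 FPKM in WT cells. The summed level of those listed was 3800 FPKM in S51A cells and 2530 FPKM in WT cells at 0 min, 4100 FPKM in S51A cells and 2720 FPKM in WT cells at 15 min, and 2750 FPKM in S51A cells and 910 FPKM in WT cells at 120 min, when Vim was not listed, so the sums cannot be compared between times. Their part in the results below was not tested. In bulk RNA, fewer expressing cells and less RNA per cell cannot be told apart.

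Most Zfp proteins bind DNA through C2H2 zinc fingers, short folds in which a pair of cysteines and a pair of histidines hold a zinc ion. Many also carry a KRAB domain, which recruits the corepressor Trim28 and, through it, the histone methyltransferase Setdb1 and other silencing factors. KRAB zinc finger genes lie in clusters that grew by duplication, and many of their proteins silence transposable elements or imprinted loci. Other Zfp genes do unrelated work, from promoter activation to ribosome quality control. In the coding sequences of GENCODE M21, a KRAB pattern was found in 146 of the 249 genes and was not found in 103, and the median number of C2H2 fingers was 11. No C2H2 finger pattern was found in 8, among them Zfp185, a LIM-domain protein of the actin cytoskeleton that carries the family name only.

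The finger itself is shown in the coding sequences of a gene higher in S51A cells at all 3 times (Zfp760), a gene that was first higher and then lower (Zfp287) and a gene lower at all 3 times (Zfp592). The capitals mark the codons of the zinc-binding cysteines and histidines.
Zfp760: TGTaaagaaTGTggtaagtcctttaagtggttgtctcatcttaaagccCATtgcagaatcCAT
Zfp287: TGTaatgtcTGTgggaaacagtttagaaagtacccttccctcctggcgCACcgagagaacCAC
Zfp592: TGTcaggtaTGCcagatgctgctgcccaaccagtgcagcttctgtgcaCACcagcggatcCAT
The first is bases 628 to 690 of the coding sequence of Zfp760, a KRAB gene with 16 fingers at chr17:21707741-21725636. The second is bases 1102 to 1164 of Zfp287, which has 14 fingers and lies at chr11:62700356-62731905. The third is bases 2224 to 2286 of Zfp592, which has 8 fingers and lies at chr7:80993681-81045164. All are GRCm38 positions.

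Promoters were also read, since the Zfp genes listed at 0 min were called largely one way. RefSeq (GRCm38.p6) gave 252 promoter sequences, from 250 bases before to 50 bases after the start, for 206 of the 249 genes. The site known as the Zfp143 motif, on either strand, was in 7 of these 252 (2.78%), against 94 of all 32851 promoters (0.286%). The 32851 include promoters of genes not listed in these cells, so family and being listed cannot be told apart in these shares. The 7 are shown because no other motif searched had as large a ratio between the shares. Each line gives the gene's own strand, with the motif or its reverse complement in capitals, which spell out the letters that were searched.
Zfp933: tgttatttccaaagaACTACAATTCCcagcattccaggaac
Zfp692: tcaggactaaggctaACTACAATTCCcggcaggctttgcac
Zfp128: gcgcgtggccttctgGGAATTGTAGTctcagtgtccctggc
Zfp108: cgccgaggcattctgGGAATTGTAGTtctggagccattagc
Zfp93: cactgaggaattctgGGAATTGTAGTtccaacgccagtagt
Zfp1: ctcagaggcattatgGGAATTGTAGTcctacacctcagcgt
Zfp58: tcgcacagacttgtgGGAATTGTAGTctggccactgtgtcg
They lie at chr4:147848425-147848465 (Zfp933, minus strand), chr11:58307006-58307046 (Zfp692, plus strand), chr7:12881148-12881188 (Zfp128, plus strand), chr7:24254712-24254752 (Zfp108, plus strand), chr7:24270332-24270372 (Zfp93, plus strand), chr8:111643403-111643443 (Zfp1, plus strand) and chr13:67500527-67500567 (Zfp58, minus strand). At 0 min 5 of the 7 genes were higher in S51A cells and Zfp1 and Zfp692 were lower. Of all listed Zfp genes 82.1% were higher at that time, and of all listed genes 49.6%. Zfp108 had 0.758 FPKM in S51A cells and 0.117 FPKM in WT cells. Zfp1 had 8.75 FPKM in S51A cells and 11.2 FPKM in WT cells. The motif was therefore found in genes called either way. Zfp108 and Zfp93 are neighbours in 1 cluster on chromosome 7, so they are not independent observations.

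The other motifs searched, also on both strands, were less unequal. CCGGAAG was in 19.8% of the family's promoters and 8.86% of all promoters, the palindromic NRF1 site in 2.78% and 0.971%, GGGCGG in 44.8% and 35.7%, CCAAT in 46% and 37.4%, CGCGCG in 15.1% and 11.3%, TGACNNNGC in 15.1% and 12.4%, and AAGATGG in 7.14% and 6.34%. Less common in the family were TGATGNAA (0.794% against 3.97%), TATAAA (7.14% against 13.6%), TGANTCA (4.37% against 7.81%) and CACGTG (5.95% against 7.15%). One stretch of bases could count for more than 1 motif, and a match is only a description of these letters. Here too, all promoters include those of genes not listed.

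In untreated cells the Zfp genes listed were mostly higher in S51A cells. Of the 196 listed at 0 min, 161 (82.1%) were higher and 35 (17.9%) were lower, against 49.6% higher and 50.4% lower among all listed genes. At a fold of at least 2, 66 Zfp genes (33.7%) were higher, against 22.1% of all listed genes, and 6 (3.06%) were lower, against 15% of all listed genes. The median log2 ratio of S51A over WT in the authors' deposited table was 0.72 for the Zfp genes and -0.27 for all listed genes. Ratios near 0 are not listed, the smallest fold over all listed genes being 1.19, and the calls over all listed genes were nearly even. The median of all listed genes thus lies at the edge of this gap and does not measure a shift. The smallest fold listed for a Zfp gene was 1.21. In all, 113 of the 196 had, in the authors' deposited table, the lowest q-value given there, 0.000118, as had 4905 of all 7555 listed genes.

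Among genes with at least 1 FPKM in the higher line, the 3 highest ratios of S51A over WT at 0 min were in KRAB genes of low level. Zfp791 had 2.66 FPKM in S51A cells and 0.0921 FPKM in WT cells, a 28.8-fold difference, and was not listed at the later times. Zfp14 had 1.02 FPKM in S51A cells and 0.0860 FPKM in WT cells (11.9-fold). Zfp941 had 1.18 FPKM in S51A cells and 0.114 FPKM in WT cells (10.3-fold). All of these were below 0.12 FPKM in WT cells, and how many reads lie behind such a level is not known here.

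Zfp760 stood out because it was well above that level, with 9.32 FPKM in S51A cells and 1.39 FPKM in WT cells (6.68-fold). Zfp551 had 1.57 FPKM in S51A cells and 0.210 FPKM in WT cells (7.46-fold). Zfp185 had 2.95 FPKM in S51A cells and 0.356 FPKM in WT cells (8.22-fold). Zfp105 and Zfp709 were listed at 0 in WT cells, with 0.796 FPKM and 1.14 FPKM in S51A cells, so no fold is given for them.

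Among the 35 genes lower in S51A cells, 23 had no KRAB pattern. Zfp593, whose human and yeast relatives take part in maturing the large ribosomal subunit, had 6.50 FPKM in S51A cells and 31.8 FPKM in WT cells, 4.89-fold lower. Zfp511 had 13 FPKM in S51A cells and 31.1 FPKM in WT cells (2.39-fold lower). Zfp692 had 4.53 FPKM in S51A cells and 11.6 FPKM in WT cells (2.55-fold lower). The remaining genes named by the same rule were Zfp951 (2.16-fold lower), Zfp747 (2.06-fold lower) and Zfp651 (2.01-fold lower), so 6 genes in all were lower at 2-fold or more.

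**Figure D1:**
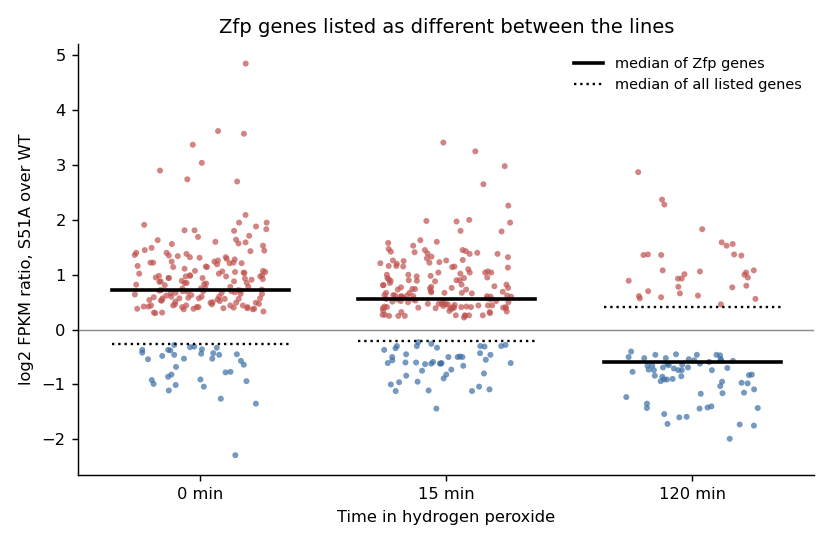
log2 FPKM ratio of S51A over WT for each listed Zfp gene (points, red higher and blue lower in S51A cells) at 0, 15 and 120 min in hydrogen peroxide, with the median of the Zfp genes (solid line) and of all listed genes (dotted line). The Zfp median lies above the dotted line at 0 and 15 min (0.72 and 0.57) and below it at 120 min (-0.59), and entries listed at 0 in a line are not drawn. Ratios near 0 are not listed, and the dotted line lies at the edge of this gap.

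After 15 min in hydrogen peroxide the picture was close to that at 0 min. Of 201 listed Zfp genes, 154 (76.6%) were higher in S51A cells and 47 (23.4%) were lower, against 49.9% and 50.1% of all listed genes. At 2-fold or more, 52 (25.9%) were higher, against 20.2% of all listed genes, and 7 (3.48%) were lower, against 12.3%. In the authors' deposited table the median log2 ratio was 0.57 for the Zfp genes and -0.20 for all listed genes. The latter again lies at the edge of the ratios near 0 that are not listed. Of the 163 Zfp genes listed at both times, 133 (81.6%) were higher at both, against 48.7% of all genes listed at both, and 29 (17.8%) were lower at both, against 49.5%.

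The only Zfp gene called in opposite directions at 0 and 15 min was Zfp568, a KRAB gene whose protein silences a placental transcript of Igf2. It had 4.66 FPKM in S51A cells and 3.48 FPKM in WT cells at 0 min, and 3.48 FPKM in S51A cells and 4.29 FPKM in WT cells at 15 min. All genes listed at these times were called higher and then lower in 1.36% of cases and lower and then higher in 0.486%, and the Zfp genes in 0.613% and 0%.

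By the same rule, the genes with the highest ratios at 15 min were in part those of 0 min. Zfp185 had 3.07 FPKM in S51A cells and 0.390 FPKM in WT cells (7.89-fold). Zfp760 had 10.6 FPKM in S51A cells and 1.68 FPKM in WT cells (6.28-fold). Zfp950 had 11.9 FPKM in S51A cells and 3.07 FPKM in WT cells (3.86-fold). Zfp760 and Zfp950 were KRAB genes above 10 FPKM in S51A cells, well above the family's median there of 4.66 FPKM.

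Zfp941 (4.79-fold), Zfp551 (3.94-fold) and Zfp677 (3.92-fold) completed the 6 highest. Zfp593 was again the lowest by ratio, with 8.28 FPKM in S51A cells and 22.6 FPKM in WT cells (2.71-fold lower). Zfp202, known in humans as a repressor of lipid metabolism genes, had 1.96 FPKM in S51A cells and 4.26 FPKM in WT cells (2.17-fold lower). Zfp703, a corepressor that lacks a typical C2H2 finger pattern here, had 12.4 FPKM in S51A cells and 25.5 FPKM in WT cells (2.06-fold lower). Zfp511, Zfp651 and Zfp697 were between 2.13 and 2.17-fold lower.

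After 120 min most of the family was not listed, and the Zfp genes that were listed were mostly lower in S51A cells. Of the 95 Zfp genes listed, 33 (34.7%) were higher and 62 (65.3%) were lower, against 50.9% and 49.1% of all listed genes. At 2-fold or more, 18 (18.9%) were higher, against 26.5% of all listed genes, and 19 (20%) were lower, against 20.9%. The median log2 ratio in the authors' deposited table was -0.59 for the Zfp genes and 0.41 for all listed genes. With nearly even calls over all listed genes, the 0.41 lies at the edge of the ratios near 0 that are not listed. The distance between the 2 medians is therefore not a measure of how far the Zfp genes departed from all genes. Fewer Zfp genes were called at this time, and 23 of the 95 had the lowest q-value in the authors' deposited table for 120 min, 0.000198, as had 3041 of all 6119 listed genes.

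The 120 min calls came from different starting points. Of the 62 lower genes, 22 had been lower at 0 min, 15 had been higher and 25 had not been listed. Of the 33 higher genes, 26 had been higher at 0 min, Zfp428 had been lower and 6 had not been listed. Seen the other way, of the 161 genes higher at 0 min, 26 were higher at 120 min, 15 were lower and 120 (74.5%) were not listed, against 44.3% not listed among all 3749 genes higher at 0 min. On this base the 15 genes were 9.32%, against 8.94% of those 3749 genes, and the 26 genes 16.1%, against 46.7%. The share still higher was thus below that of all genes, and the share that turned lower was close to it. Of the 35 genes lower at 0 min, 22 were lower at 120 min and 12 (34.3%) were not listed, against 41.1% of all 3806 such genes. A gene that is not listed was either not called or not tested, and its values are not analysed here.

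The genes that were higher at 120 min, with at least 1 FPKM in S51A cells, included several with large ratios at every time. Zfp760 had 2.89 FPKM in S51A cells and 0.559 FPKM in WT cells (5.17-fold). Zfp950 had 12.1 FPKM in S51A cells and 2.50 FPKM in WT cells (4.86-fold). Zfp185 had 2.38 FPKM in S51A cells and 0.325 FPKM in WT cells (7.31-fold). Zfp760 was at a lower level in both lines than at 0 min and kept its difference, whereas Zfp950 stayed near its earlier level in both lines. Zfp677 (3.01-fold), Zfp772 (2.95-fold) and Zfp618 (2.89-fold) were the next highest at that level.

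Of the 6 genes with the lowest ratios at 120 min and at least 1 FPKM in WT cells, 5 had no KRAB pattern, and Zfp951 had one. Zfp951 had 0.555 FPKM in S51A cells and 2.20 FPKM in WT cells (3.97-fold lower). Zfp703 had 3.86 FPKM in S51A cells and 13.1 FPKM in WT cells (3.36-fold lower). Zfp592, which works with the chromatin reader Zmynd8, had 1.80 FPKM in S51A cells and 5.98 FPKM in WT cells (3.32-fold lower). In all of these the S51A value was below that at 0 and 15 min.

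Zfp106, an RNA-binding protein needed for motor neuron upkeep, gave the highest WT levels of the family at 0 and 15 min and parted further over time. It had 36.8, 31.1 and 16.6 FPKM in S51A cells at 0, 15 and 120 min, against 46.5, 60.5 and 50.2 FPKM in WT cells. This was 1.26, 1.95 and 3.03-fold lower. Zfp628 (3.29-fold lower) and Zfp691 (2.91-fold lower) also belonged to these 6, and neither was listed at 0 min.

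The 52 Zfp genes listed at all 3 times fell into only 3 patterns. They were higher in S51A cells throughout in 25 cases (48.1%, against 44.9% of the 3828 genes listed at all 3 times), lower throughout in 20 (38.5%, against 46.2%) and higher, higher and then lower in 7 (13.5%, against 1.78%). So 45 of the 52 were called the same way at each time, where all genes listed at all 3 times were called the same way in 91.1%. The 7 genes were Zfp68, Zfp74, Zfp287, Zfp507, Zfp758, Zfp799 and Zfp961, and 5 of them had a KRAB pattern. Counting also the genes not listed at 15 min, and leaving out those not listed at 120 min, 15 of 64 Zfp genes listed at 0 and 120 min (23.4%) were higher and then lower, against 7.74% of all genes listed at both. Both times higher were 26 Zfp genes (40.6%, against 40.5%), and both times lower 22 (34.4%, against 41.4%). The reverse, lower and then higher, was seen in Zfp428 alone (1.56%, against 10.4%). Of the 68 Zfp genes listed at 15 and 120 min, 7 were higher and then lower (10.3%, against 1.51%), and none was lower and then higher (against 3.6%).

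Zfp799, a KRAB gene, had 2.53, 2.51 and 0.406 FPKM in S51A cells at 0, 15 and 120 min, against 1.29, 1.51 and 0.901 FPKM in WT cells. Zfp287 had 3.36, 3.14 and 0.616 FPKM in S51A cells, against 1.45, 1.96 and 1.12 FPKM in WT cells. Zfp74, a KRAB gene, had 4.08, 4.23 and 1.26 FPKM in S51A cells, against 2.45, 3.16 and 2.25 FPKM in WT cells. In each the S51A value was at least 1.34-fold higher at 15 min and at least 1.79-fold lower at 120 min, with the WT values closer together.

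Zfp507 differed from these, since its WT level was higher at 120 min. It had 8.28, 7.57 and 6.28 FPKM in S51A cells, against 4.82, 6.32 and 9.32 FPKM in WT cells. Zfp68 was the highest of the 7, with 22, 22.3 and 10.3 FPKM in S51A cells, against 16.6, 16.9 and 14.9 FPKM in WT cells. Zfp369, listed only at 0 and 120 min, had 3.16 and 0.642 FPKM in S51A cells, against 1.68 and 1.64 FPKM in WT cells. Its WT values were nearly equal.

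Zfp148, which binds GC-rich promoters, had 19.3 and 9.06 FPKM in S51A cells at 0 and 120 min, against 13.6 and 12 FPKM in WT cells. Zfp318, needed for the switch between IgM and IgD transcripts in B cells, had 4.26 and 1.59 FPKM in S51A cells, against 2.71 and 2.99 FPKM in WT cells. Zfp428 ran the other way, with 17.1 and 32.2 FPKM in S51A cells, against 27.3 and 21.9 FPKM in WT cells.

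**Figure D2:**
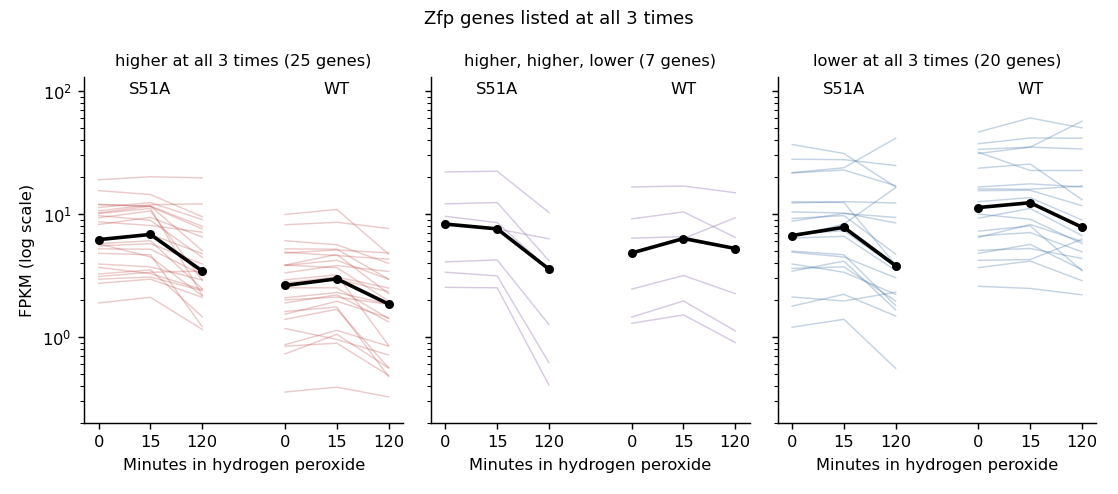
FPKM on a log axis at 0, 15 and 120 min (evenly spaced) for the 52 Zfp genes listed at all 3 times, with S51A cells left and WT cells right in each panel, thin lines for genes and the black line for their median. In the 7 genes of the middle panel the S51A median was 8.28, 7.57 and 3.56 FPKM and the WT median 4.82, 6.32 and 5.24 FPKM, while the S51A median of the 25 genes at left stayed above that of WT and that of the 20 genes at right below it.

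The levels plotted by pattern show that S51A medians were lower at 120 min in all 3 sets. The 25 genes higher throughout had medians of 6.19, 6.82 and 3.43 FPKM in S51A cells and 2.62, 2.97 and 1.85 FPKM in WT cells. The 20 genes lower throughout had medians of 6.68, 7.8 and 3.8 FPKM in S51A cells and 11.3, 12.4 and 7.81 FPKM in WT cells. Of the 25, 14 had a KRAB pattern, and of the 20, 7 had one.

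Levels were also followed from time to time within a line. These values come from separate tables, which may have been normalized separately, and only from genes called at both times, so they are descriptions with no test. They are differences of log2(FPKM + 0.1) from which the median of all genes listed at both times was subtracted. Over 0 to 15 min the median of 163 Zfp genes was -0.03 in S51A cells and 0.12 in WT cells, where 118 of the 163 lay above the median of all genes. Over 0 to 120 min the median of 64 Zfp genes was -0.53 in S51A cells (lower to upper quartile, -1.04 to -0.12) and -0.11 in WT cells (-0.38 to 0.04). In S51A cells 53 of the 64 (82.8%) lay below the median of all genes, and in WT cells 43 of the 64 (67.2%). Over 15 to 120 min the median of 68 Zfp genes was -0.41 in S51A cells and -0.34 in WT cells, and 56 of the 68 (82.4%) lay below the median of all genes in each line. Lower values at 120 min were thus seen in both lines when 15 min was the starting point. Without the subtraction the medians over 0 to 120 min were -0.74 for the Zfp genes and -0.21 for all 4330 genes in S51A cells, and -0.22 and -0.11 in WT cells.

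The lower values in S51A cells at 120 min were spread over the patterns. The median centred change was -1.19 for the 15 genes higher and then lower, -0.32 for the 26 genes higher at both times and -0.34 for the 22 genes lower at both times. In WT cells these medians were -0.04, -0.23 and -0.11. So the 15 genes differed from the others mainly in S51A cells, although the choice of opposite calls itself favours a large change in one line. Their median was 2.97 FPKM at 120 min and 8.51 FPKM at 0 min in S51A cells, against 5.24 FPKM and 6.19 FPKM in WT cells.

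**Figure D3:**
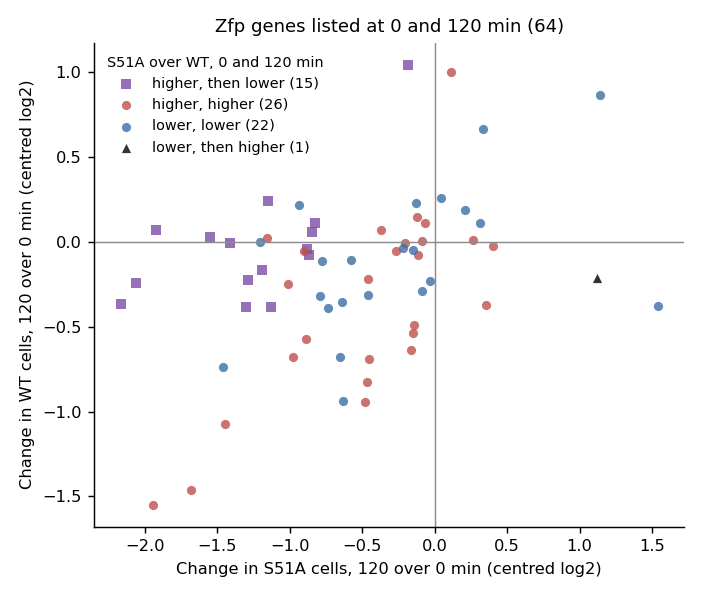
Centred change of log2(FPKM + 0.1) over 0 to 120 min in S51A cells (horizontal) against WT cells (vertical) for the 64 Zfp genes listed at both times, by the direction of the 2 calls. The 15 genes called higher and then lower (squares) all lie left of 0, between -2.17 and -0.18, while in WT cells they lie between -0.38 and 1.05.

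Among single genes, the 5 lowest changes in S51A cells were those of Zfp799 (-2.17), Zfp287 (-2.06), Zfp503 (-1.95), Zfp369 (-1.92) and Zfp229 (-1.68). Zfp503, a corepressor related to Zfp703, was lower at 120 min in both lines. It had 10.1, 11.1 and 2.19 FPKM in S51A cells, against 2.91, 3.20 and 0.853 FPKM in WT cells. Zfp229, a KRAB gene, was likewise lower in both lines, with 4.79, 4.66 and 1.21 FPKM in S51A cells and 1.61, 1.75 and 0.476 FPKM in WT cells. Zfp503 and Zfp229 thus remained higher in S51A cells at every time.

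In WT cells the lowest changes were those of Zfp503 (-1.55), Zfp229 (-1.46), Zfp760 (-1.07), Zfp281 (-0.94) and Zfp651 (-0.94). Zfp281, a relative of Zfp148 that binds GC-rich promoters, had 15.5, 14.4 and 9.51 FPKM in S51A cells, against 9.92, 10.9 and 4.72 FPKM in WT cells. It was 2.01-fold higher in S51A cells at 120 min.

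Few Zfp genes had higher levels at 120 min. In S51A cells the highest changes were those of Zfp593 (1.54), Zfp367 (1.14), Zfp428 (1.12), Zfp950 (0.40) and Zfp956 (0.36). Zfp593 had 6.50, 8.28 and 16.4 FPKM in S51A cells, against 31.8, 22.6 and 22.6 FPKM in WT cells, so that it was 1.38-fold lower at 120 min after 4.89-fold at 0 min. Zfp367 had 21.7, 23.8 and 41.4 FPKM in S51A cells, against 33.6, 35.0 and 56.9 FPKM in WT cells. In WT cells the highest changes were those of Zfp507 (1.05), Zfp493 (1.00), Zfp367 (0.87), Zfp202 (0.67) and Zfp131 (0.26). Zfp493 was at 0.0638 FPKM in WT cells at 0 min, below the pseudocount.

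The Zfp genes with longer transcripts had the lower changes in S51A cells, as other genes did. For transcripts under 3000 bases, of 3000 to under 5000 and of 5000 bases or more, the median centred change in S51A cells was -0.16, -0.48 and -0.87 for Zfp genes and 0.42, -0.17 and -0.63 for all other genes listed at both times. In WT cells it was -0.22, -0.11 and 0.00 for Zfp genes and 0.00, -0.02 and 0.03 for the others. Across the 64 genes, Spearman's rho between transcript length and the change was -0.43 in S51A cells and 0.14 in WT cells, as a description over genes that share their libraries. With GC content it was 0.04 in S51A cells and 0.02 in WT cells, and with the number of fingers -0.19 and -0.25. The 15 genes that were higher and then lower had a median transcript length of 4749 bases, the 26 higher at both times 3164 bases and the 22 lower at both times 3497 bases. Whether transcript length plays a part in the calls was not tested.

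The calls differed with the make-up of the protein. At 0 min, 109 of 121 listed KRAB genes (90.1%) were higher in S51A cells, and 52 of 75 genes without a KRAB pattern (69.3%). At 15 min these were 107 of 122 (87.7%) and 47 of 79 (59.5%). At 120 min they were 18 of 44 (40.9%) and 15 of 51 (29.4%). Both classes thus lay above the share of all listed genes at 0 and 15 min and below it at 120 min, and the KRAB class had the higher share each time.

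**Figure D4:**
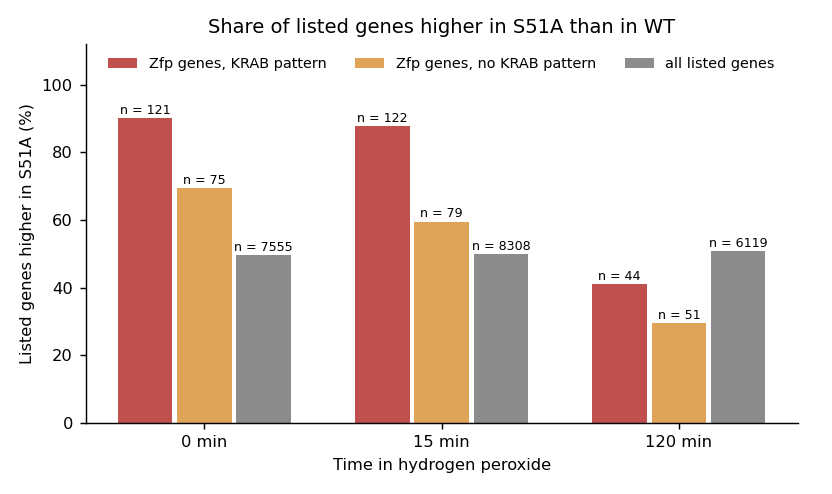
Percent of listed genes called higher in S51A cells than in WT cells at 0, 15 and 120 min, for Zfp genes with and without a KRAB pattern and for all listed genes, with the number of listed genes above each bar. KRAB genes reach 90.1% at 0 min, against 49.6% of all listed genes, and stand at 40.9% at 120 min, against 50.9%.

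KRAB genes were also present at lower levels. At 0 min their median was 4.41 FPKM in S51A cells and 2.51 FPKM in WT cells. That of the Zfp genes without the pattern was 8.28 FPKM in S51A cells and 5.78 FPKM in WT cells. By number of fingers, the share higher at 0 min was 62.1% for 1 to 5 fingers, 79.3% for 6 to 10, 90.1% for 11 to 15 and 90.3% for more than 15. At 15 min these shares were 64.5%, 79.3%, 82.9% and 72.2%, and at 120 min they were 33.3%, 38.5%, 32% and 27.8%. The order at 0 min was thus no longer present at 120 min.

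The low level of the family moved with these counts. Over all listed Zfp genes the median level at 0 min was 4.94 FPKM in S51A cells and 3.29 FPKM in WT cells, where that of all listed genes was 14.4 FPKM in S51A cells and 13.1 FPKM in WT cells. Among other genes with a mean of both lines under 2 FPKM, 70.3% were higher in S51A cells at 0 min, among those of 2 to under 8 FPKM 68.6%, and among those of 8 FPKM or more 38.3%. For Zfp genes these shares were 93.2%, 88.7% and 61.8%. At 15 min they were 91.5%, 81.7% and 57.4% for Zfp genes and 69.8%, 63.5% and 40.7% for the others. At 120 min they were 57.1%, 34% and 14.3% for Zfp genes and 59%, 47% and 51.2% for the others. Within each band of level the Zfp share was thus above that of the others at 0 and 15 min, and at 120 min it was below it, by little in the lowest band.

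Transcript length gave a like picture. At 0 min the share higher in S51A cells was 74.3%, 86.5% and 87.5% for Zfp genes with transcripts under 3000 bases, of 3000 to under 5000 and of 5000 bases or more, against 37.7%, 54.2% and 67.8% for the others. At 15 min it was 78.7%, 79.5% and 67.4%, against 52.3%, 49.2% and 41.8%. At 120 min it was 48.6%, 36.1% and 12.5%, against 70.6%, 40.3% and 20.9%. Among the other genes, long transcripts were more often higher at 0 min and more often lower at 120 min, and the Zfp genes did the same at a different height. The median transcript was 3532 bases for the Zfp genes and 3057 bases for all listed coding genes, and the median GC content 45.4% and 50.2%. The part of level and length in the family's calls was not tested.

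Several of these genes are neighbours. The 249 were on chromosome 7 in 61 cases, on chromosome 17 in 31, on chromosome 13 in 23 and on chromosome 8 in 21. There were 10 clusters of at least 5 listed Zfp genes with gaps of at most 500 kb, holding 94 genes. In these clusters together 67 of 77 listed genes were higher in S51A cells and 10 lower at 0 min. At 15 min 67 of 78 were higher and 11 lower, and at 120 min 11 of 27 were higher and 16 lower. All listed Zfp genes, which include these, had 82.1%, 76.6% and 34.7% higher. Whether clustered genes differed from the other Zfp genes was not tested.

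In 3 clusters every call was higher in S51A cells. The one with the most genes was that at chr13:67038596-67827002, with 14 genes that all had a KRAB pattern. All 14 were higher in S51A cells at 0 min, all 13 that were listed at 15 min were higher, and so were the 2 listed at 120 min, Zfp58 and Zfp493. Of all listed Zfp genes with a KRAB pattern, which include these, 90.1% were higher at 0 min, 87.7% at 15 min and 40.9% at 120 min. Zfp58 had 6.19, 6.82 and 4.76 FPKM in S51A cells, against 3.84, 4.69 and 2.25 FPKM in WT cells. Of the 75-base windows of Zfp58, 49.6% are found in at least 1 other gene, so its reads could have been split. In the same cluster this holds for 14.2% of the windows of Zfp85 and 12.8% of those of Zfp273, while Zfp712 and Zfp759 share none. At chr6:47835661-48623227 all 7 genes were higher at 0 and at 15 min, and the 1 gene listed at 120 min was higher too. At chr8:69209038-69791178, with 6 KRAB genes, the 2 listed at 0 min, the 5 at 15 min and the 1 at 120 min were all higher. The cluster with the most genes, 16 at chr17:21008903-23599487, held Zfp760, Zfp677 and Zfp229, and 10 of its 13 listed genes were higher at 0 min, 11 of 14 at 15 min and 3 of 7 at 120 min.

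One cluster went the other way. At chr7:127233061-127885996 lie Zfp553, Zfp771, Zfp768, Zfp747, Zfp688, Zfp689, Zfp629, Zfp668 and Zfp646, of which 3 had a KRAB pattern. None of the 4 listed at 0 min was higher in S51A cells, 1 of 6 was at 15 min and none of 7 was at 120 min. Zfp747 had 1.78, 2.22 and 1.48 FPKM in S51A cells, against 3.66, 4.14 and 2.87 FPKM in WT cells. Of its 75-base windows, 21.4% are found in at least 1 other gene. Neighbouring genes that arose by duplication are not independent observations.

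**Figure D5:**
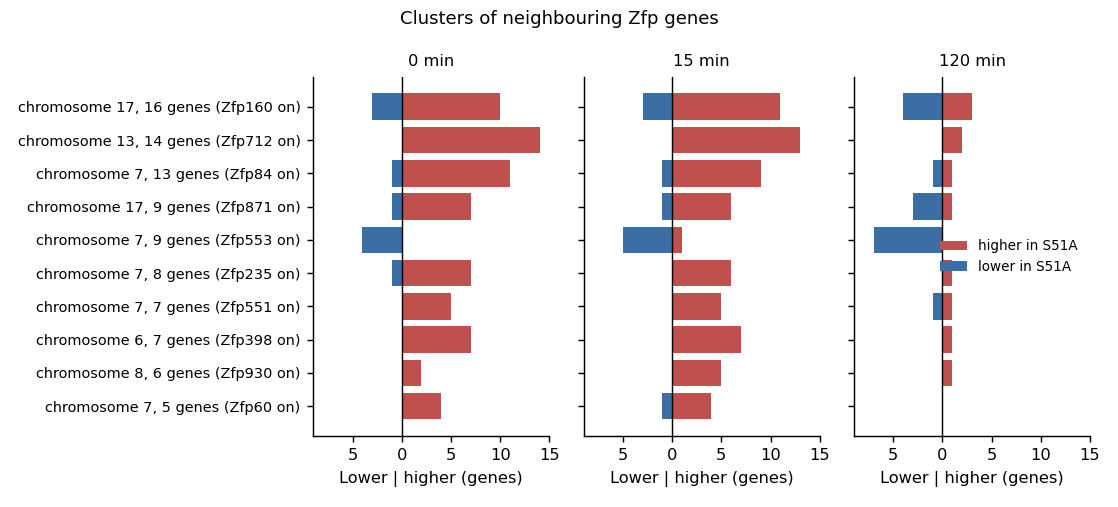
Number of listed Zfp genes higher (right, red) and lower (left, blue) in S51A cells at 0, 15 and 120 min in each of the 10 clusters of neighbouring Zfp genes, labelled by chromosome, number of genes and first gene. The 14 genes on chromosome 13 are all on the right at 0 min, and the 9 on chromosome 7 that begin with Zfp553 are on the left at 0 and 120 min.

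Members with well-known roles were called in either direction. Zfp57, a KRAB protein that keeps DNA methylation at imprinted loci, had 8.75, 10.1 and 9.38 FPKM in S51A cells, against 16.6, 17.6 and 16.6 FPKM in WT cells. It was lower by 1.89, 1.74 and 1.77-fold. Zfp445, its partner in keeping imprints, was listed only at 15 min, with 16.4 FPKM in S51A cells and 20.8 FPKM in WT cells. These 2 KRAB genes were thus among the 15 of 122 called lower at 15 min.

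Zfp598, a ubiquitin ligase that marks collided ribosomes, had 21.6, 22.8 and 17 FPKM in S51A cells, against 31.1, 35.0 and 33.8 FPKM in WT cells. Zfp622, whose human and yeast relatives help to mature the large ribosomal subunit, had 17 and 18.4 FPKM in S51A cells at 0 and 15 min, against 29.0 and 27.7 FPKM in WT cells. Both were lower in S51A cells where listed.

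Zfp521, which holds back adipocyte formation, had 3.53 and 3.16 FPKM in S51A cells, against 1.46 and 1.87 FPKM in WT cells. Zfp467, which favours it, had 2.81 and 2.75 FPKM in S51A cells, against 1.41 and 1.42 FPKM in WT cells. Zfp638, an RNA-binding protein also tied to adipocytes, had 36.8 and 33.8 FPKM in S51A cells, against 22.5 and 25.6 FPKM in WT cells. All of these were higher in S51A cells at 0 and 15 min and not listed at 120 min. Zfp423, also known for its role in adipocytes, was not listed at any time.

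The 5 genes with the highest levels of the family had no KRAB pattern, and they were called in either direction. Zfp706 had 72.0 FPKM in S51A cells and 52.3 FPKM in WT cells at 120 min, the only time at which it was listed. Zfp637 had 52.0 and 56.1 FPKM in S51A cells at 0 and 15 min, against 39.9 and 29.7 FPKM in WT cells. Zfp91, a ubiquitin ligase of the non-canonical NF-κB pathway, was listed at 0 min only, with 54.9 FPKM in S51A cells and 44.6 FPKM in WT cells. Zfp706, Zfp637 and Zfp91 were higher in S51A cells where listed, while Zfp106 and Zfp367, whose values stand above, were lower at all 3 times.

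Zfp131 and Zfp217 also went apart. Zfp131, a zinc finger protein with a BTB domain, had 27.9, 27.7 and 24.8 FPKM in S51A cells, against 37.3, 41.6 and 41.4 FPKM in WT cells. Zfp217, known in humans as an oncogene, had 4.47 and 4.41 FPKM in S51A cells at 0 and 15 min, against 3.03 and 3.10 FPKM in WT cells. Zfp143, an activator of many promoters, had 8.11 and 8.34 FPKM in S51A cells at these times, against 11.2 and 12.8 FPKM in WT cells. Of the other genes chosen by name, Zfp42, Zfp207, Zfp326, Zfp346 and Zfp809 were not listed at any time.

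A list of genes whose products work with KRAB proteins in silencing held 27 symbols, with Tasor and Fam208a naming the same gene. Of these, 8 of 13 listed were higher in S51A cells at 0 min, 8 of 14 at 15 min and 3 of 13 at 120 min. Among all listed genes 49.6%, 49.9% and 50.9% were higher. Setdb1, the histone methyltransferase of the Trim28 complex, had 57.3, 56.1 and 24.4 FPKM in S51A cells, against 17.3, 19.0 and 14.7 FPKM in WT cells. Dnmt1, which maintains DNA methylation, had 67.6, 63.1 and 40.8 FPKM in S51A cells, against 122, 141 and 115 FPKM in WT cells. Trim28 itself was not listed at any time. With so few genes listed, no more than these counts is read from them.

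Families of related zinc finger genes were also counted, to be read against 49.6%, 49.9% and 50.9% higher among all listed genes at 0, 15 and 120 min. Of Zkscan and Zscan genes, which join C2H2 fingers to a SCAN domain, 9 of 10 listed were higher in S51A cells at 0 min, 9 of 11 at 15 min and 1 of 6 at 120 min. Of Zbtb genes, which carry a BTB domain, 12 of 19 were higher at 0 min, 9 of 24 at 15 min and 2 of 18 at 120 min. Of Klf genes, 4 of 12 were higher at 0 min, 3 of 10 at 15 min and 2 of 7 at 120 min. In the group of Zfhx, Zic, Gli, Ikzf and Znf genes, all 7 listed were higher at 0 min, 4 of 6 at 15 min and 2 of 5 at 120 min. Differences between these families were not tested.

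Of 30 genes of transcript decay, 13 of 20 listed were higher in S51A cells at 0 min, 8 of 20 at 15 min and 7 of 16 at 120 min, beside 49.6%, 49.9% and 50.9% of all listed genes. Zfp36, which recruits deadenylases to AU-rich transcripts, had 9.06 FPKM in S51A cells and 3.51 FPKM in WT cells at 0 min, and 29.9 FPKM in S51A cells and 3.89 FPKM in WT cells at 120 min. Btg2, an activator of deadenylation, had 6.77, 10.1 and 15.6 FPKM in S51A cells, against 1.89, 3.56 and 2.93 FPKM in WT cells. Xrn1, the main cytoplasmic 5′ to 3′ exonuclease, had 8.63, 6.06 and 1.96 FPKM in S51A cells, against 5.82, 9.45 and 6.19 FPKM in WT cells. Transcript half-lives were not analysed here.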

How the data were processed

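Libraries of poly(A) RNA, made with a kit that keeps strand, were read for 75 bases from 1 end, per the labels' protocols. STAR, Cufflinks and Cuffdiff are named in the submitters' processing notes, with the mouse genome mm10 and no versions. No source used here says how strand entered the counting, so overlapping antisense genes may share reads. Per the file headers, the authors' deposited tables hold, for each gene, the log2 FPKM of both lines, their log2 ratio (S51A over WT) and a q-value. Values were combined per line before deposit, and every listed gene was marked significant at a q-value of at most 0.05. A log2 value of -10 was read as a level of 0. With no counts or library sizes to go by, the depth and the precision of each value are unknown. Nothing in the tables says that the samples of a group came from separate cultures.

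FPKM was taken back from the log2 values, and folds from the deposited ratios, with pandas 2.3.3. Changes over time used a pseudocount of 0.1, which understates changes of low genes. Positions, transcripts and coding sequences came from GENCODE M21, with 247 of 249 genes matched by symbol and 2 through a RefSeq synonym. The KRAB pattern was searched in the first 250 residues, so genes without it may still carry a KRAB domain further along. A window of 75 bases found in another gene marked reads that could be split: 14 genes shared over 20% of theirs and 165 shared none. Genes were named by rule: the 6 highest and 6 lowest ratios at each time with at least 1 FPKM in the higher line, the 5 highest levels, the 5 largest changes in each direction in each line, opposite calls, levels of 0 and a list of known genes. Zfp143 was named after its values were seen, as were Zfp108, Zfp1, Zfp58 and other genes that carry the promoter motif. The genes and lists were chosen with earlier results of these data known.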

Additional observations from a re-analysis of the deposited data

Results flagged for a closer look

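Of the 249 Zfp genes, 17 were called in opposite directions at different times. Genes listed at only 1 time are among the 249 and have no second call. Of the 64 Zfp genes listed at 0 and 120 min, 23.4% were higher and then lower, against 7.74% of all genes listed at both. Lower and then higher were 1.56% of the 64, against 10.4% of all genes listed at both. These shares leave out genes not listed at 120 min, which were 74.5% of the Zfp genes higher at 0 min and 44.3% of all genes higher then. With those counted in, 9.32% of the Zfp genes higher at 0 min turned lower, close to the 8.94% of all genes higher at 0 min. Over 0 and 15 min, 0.613% of 163 Zfp genes were higher and then lower, against 1.36% of all genes. The difference between the times was not tested, because only 1 value per line and time was used. Each value below is the log2 ratio of S51A over WT at the later time minus that at the earlier time, both from the authors' deposited tables. Among genes higher in S51A cells at 0 min and lower at 120 min, it was -2.26 for Zfp369, -2.12 for Zfp799, -2.06 for Zfp287, -1.71 for Zfp397, -1.57 for Zfp74 and -1.56 for Zfp318. It was -1.34 for Zfp507, -1.20 for Zfp12, -1.16 for Zfp758, -1.05 for Zfp871, -1.04 for Zfp961 and -1.03 for Zfp426. The smallest were -0.95 for Zfp68, -0.90 for Zfp148 and -0.87 for Zfp319, for which the fold at 120 min was between 1.32 and 1.47. Zfp568 changed direction between 0 and 15 min, by -0.72. Zfp428, lower and then higher, changed by 1.25.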

How the results depend on the processing

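No paired analysis was possible because the tables give 1 value per line and time and no column carries a replicate number, and for the same reason no sample could be left out. Of 65 values recomputed under another setting, 50 kept their direction and size, 14 moved and 1 reversed. At a fold of at least 2 the counts were 66 higher and 6 lower at 0 min, 52 and 7 at 15 min and 18 and 19 at 120 min, and 13 genes instead of 45 were called the same way at all 3 times. In genes listed at all 3 times the median log2 ratio of S51A over WT was 0.46 at 15 min and -0.46 at 120 min. There the median change of level over 0 to 15 min in S51A cells was 0.024 instead of -0.029, a reversal within a range close to 0, and over 0 to 120 min in WT cells it was -0.22. The change in S51A cells over 0 to 120 min was -0.43 with a pseudocount of 1, -0.74 without subtracting the median of all genes and -0.64 without the genes that share over 20% of their windows, a setting chosen after seeing the data. Without the subtraction it was -0.22 in WT cells. Apart from the setting, the cause was not tested. Genes that were not called are absent from every count, so shares here are shares of called genes.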
